A study of Homo sapiens with 6 samples.

Results

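The genes described here are 10 genes that carry a cell from G1 into S phase: the E-type cyclins CCNE1 and CCNE2, their kinase CDK2, the phosphatase gene CDC25A, the ubiquitin ligase gene SKP2, and the E2F transcription factor genes E2F1, E2F2, E2F3, E2F7 and E2F8. They were chosen by name from the 26485 entries of the deposited count table, and all 10 were found and passed the filter on low counts. The treated cells were REH cells kept for 24 h with 25 µM ML141, and their control was REH cells kept for the same time with DMSO, the solvent. REH is an established human line of B-precursor acute lymphoblastic leukemia that carries the ETV6-RUNX1 fusion, and ML141 is a compound that inhibits the small GTPase CDC42. Each group had 3 libraries, numbered 1 to 3 in the sample titles, and all cells were of this 1 line.

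Cyclin E binds and activates CDK2, and the active pair phosphorylates the retinoblastoma protein and starts DNA replication. Phosphorylation of the retinoblastoma protein frees the activators E2F1, E2F2 and E2F3, which switch on genes of S phase, CCNE1, CCNE2 and E2F genes among them. E2F7 and E2F8 are made in turn and repress E2F targets. CDC25A removes inhibitory phosphates from CDK2, and SKP2 marks the CDK inhibitor p27, the product of CDKN1B, for destruction.

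With ML141 all 10 genes fell. The changes ran from 7.91-fold lower for CCNE2 to 1.45-fold lower for E2F3, with a median log2 fold change of -2.12, against 0.02 over all 11454 genes tested. By edgeR's quasi-likelihood test with Benjamini-Hochberg adjustment over all tested genes, 54.4% of those genes changed at an adjusted p of 0.05. With ML141, 27.7% were lower and 26.7% were higher. The libraries of the ML141 and DMSO groups did not overlap in any of the 10 genes, and 30.7% of all tested genes were likewise lower without overlap. Falls of more than 2-fold were found in 9 of the 10 genes and in 6.24% of all tested genes, and falls of more than 4-fold in 7 of the 10 and in 0.672% of all tested genes. The count past 4-fold was 4, against 0.585% of all tested genes, without ML141 replicate 1, and 4, against 0.471%, with library totals as the scaling, since E2F2, E2F8 and SKP2 then fell by less. With upper-quartile factors it was 5, against 0.550%. The count past 2-fold was 9 in each case. In libraries of bulk RNA, less of a transcript per cell and fewer cells that make it cannot be told apart.

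The libraries held 10436147 to 12308039 counts with ML141 and 8284299 to 10837224 with DMSO, and a single count was worth 0.0754 to 0.0926 CPM with ML141 and 0.0964 to 0.130 CPM with DMSO, where CPM are counts scaled to the TMM-adjusted library size. Among the ML141 libraries, replicates 1 and 2 differed most, with a chi-square per degree of freedom of 14.9 between their counts. It was 7.60 between replicates 1 and 3, 5.69 between replicates 2 and 3, and 2.51 to 4.44 among DMSO libraries. This measure also grows with the number of counts, which was not the same in all libraries. Of 10 markers of B precursors, 9 were tested, of which 7 were higher and 0 lower, against 26.7% and 27.7% of all tested genes. The 10 markers summed to 7907 to 8229 CPM with ML141 and 6049.7 to 6427 CPM with DMSO. VPREB1, a surrogate light chain gene, had 1 count in all 6 libraries together. Of 5 T cell markers, 4 had no count in any library and CD3E had 1, and 5 stromal markers summed to 0.556 to 1.72 CPM with ML141 and 1.87 to 2.07 CPM with DMSO. The 5 myeloid markers summed to 29.3 to 31.0 CPM with ML141 and 43.8 to 45.3 CPM with DMSO, mostly from MPO at 26.2 ± 1.38 CPM with ML141 and 41.4 ± 0.364 CPM with DMSO (mean ± SD, n = 3 each, as in all values written with ±). The part of these marker shifts in the results was not tested.

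E2F factors bind promoters at sites close to TTTNNCGC, where N is any base. The promoters of the E2F activator genes, CDC25A and CCNE1 are shown here, and those of E2F7 and SKP2 are not. All 10 genes fell with ML141, so the fall does not set the shown promoters apart. A link between these letters and the fall was not tested. The windows run from 250 bases before to 50 after the start annotated by RefSeq (build GRCh38.p14), are written 5′ to 3′ on the strand of the gene, and carry each match of TTTNNCGC on either strand in capitals. For E2F3 the first of its 2 annotated starts is shown.
E2F1, chr20:33686336-33686635, minus strand: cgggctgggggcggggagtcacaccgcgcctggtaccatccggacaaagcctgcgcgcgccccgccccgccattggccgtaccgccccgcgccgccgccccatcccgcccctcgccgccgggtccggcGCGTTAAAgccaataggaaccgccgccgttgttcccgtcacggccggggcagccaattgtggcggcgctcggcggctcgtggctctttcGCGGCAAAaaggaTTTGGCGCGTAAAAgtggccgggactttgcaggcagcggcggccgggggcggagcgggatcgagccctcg
E2F2, chr1:23531184-23531483, minus strand: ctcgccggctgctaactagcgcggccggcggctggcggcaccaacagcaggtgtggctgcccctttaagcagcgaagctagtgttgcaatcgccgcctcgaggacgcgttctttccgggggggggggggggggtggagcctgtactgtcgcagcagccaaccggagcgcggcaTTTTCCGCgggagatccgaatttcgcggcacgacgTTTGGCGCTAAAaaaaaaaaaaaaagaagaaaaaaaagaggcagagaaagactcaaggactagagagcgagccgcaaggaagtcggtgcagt
E2F3, chr6:20401629-20401928, plus strand: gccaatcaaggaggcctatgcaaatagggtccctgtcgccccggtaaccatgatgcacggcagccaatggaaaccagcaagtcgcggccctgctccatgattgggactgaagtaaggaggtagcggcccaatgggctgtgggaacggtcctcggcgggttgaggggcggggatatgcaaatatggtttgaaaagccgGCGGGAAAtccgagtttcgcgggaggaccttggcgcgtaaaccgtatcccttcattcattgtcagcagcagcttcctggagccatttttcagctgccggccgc
CDC25A, chr3:48188368-48188667, minus strand: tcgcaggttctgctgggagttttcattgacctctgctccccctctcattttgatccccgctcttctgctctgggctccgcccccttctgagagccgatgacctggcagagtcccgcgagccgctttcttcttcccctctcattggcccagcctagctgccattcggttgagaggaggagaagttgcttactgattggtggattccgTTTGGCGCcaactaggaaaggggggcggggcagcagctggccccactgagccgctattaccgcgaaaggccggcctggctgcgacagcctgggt
CCNE1, chr19:29811741-29812040, plus strand: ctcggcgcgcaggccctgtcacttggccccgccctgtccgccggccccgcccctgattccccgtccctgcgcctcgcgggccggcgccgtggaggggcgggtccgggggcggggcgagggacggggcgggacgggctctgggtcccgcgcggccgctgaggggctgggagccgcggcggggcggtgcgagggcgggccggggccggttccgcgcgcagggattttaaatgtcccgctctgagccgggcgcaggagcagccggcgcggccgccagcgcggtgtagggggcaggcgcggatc
Of the 10 genes, 7 matched a RefSeq promoter window (CCNE2, CDK2 and E2F8 did not). TTTNNCGC was in a window of 4 genes, namely E2F1, E2F2, E2F3 (first window only) and CDC25A. Of all 35116 windows of this length, counted by window and not by gene, 6.89% held it at least once and 0.558% held it 2 or more times. The E2F1 window held 4 matches, GCGTTAAA, GCGGCAAA, TTTGGCGC and GCGTAAAA, starting 122, 33, 20 and 14 bases before the annotated start, of which the last 2 overlap. The E2F2 window held 3, TTTTCCGC, TTTGGCGC and GCGCTAAA, at 77, 42 and 38 bases before the start, and again the last 2 overlap. CDC25A held TTTGGCGC at 44 bases and E2F3 held GCGGGAAA at 53 bases before the start. The letters TTTGAA, of the promoter element called CHR that is bound by the DREAM and MYB-MuvB complexes, were found on either strand in 15.2% of all windows and, among these genes, in the first E2F3 window, where they do not overlap the other match. The windows of CCNE1, E2F7 and SKP2 and the second window of E2F3 held neither set of letters.

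The E-type cyclins fell furthest. CCNE2 (chromosome 8, 94879770 to 94896678, hg38) had 6.11, 18.5 and 16.6 CPM in ML141 replicates 1, 2 and 3, against 116, 104 and 109 CPM in DMSO replicates 1, 2 and 3. The groups lay far apart, and ML141 replicate 1 was the lowest library of all. The fitted log2 fold change was -2.98 with an SE of 0.260, the 8th lowest of the 11454 genes tested (edgeR adjusted p = 2.66e-06). Of the exon bases of CCNE2, 47.5% are also annotated to INTS8 on the opposite strand, and the libraries were made without strand marking. INTS8, a subunit of the Integrator complex, had 133 ± 12.1 CPM with ML141 and 139.9 ± 6.88 CPM with DMSO (log2 fold change -0.07 with an SE of 0.089, edgeR adjusted p = 0.523).

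CCNE1 (chromosome 19, 29811898 to 29824308), the paralog of CCNE2, had 2.50, 6.71 and 3.95 CPM in the 3 ML141 libraries, against 29.9, 32.0 and 28.7 CPM in the DMSO libraries. The ML141 values rest on 27, 89 and 46 counts, the smallest numbers among the 10 genes. At -2.75 with an SE of 0.242, its log2 fold change was the 16th lowest (edgeR adjusted p = 2.81e-06), and it shares no exon bases with another gene in the GENCODE basic annotation. CCNE2 relative to CCNE1 did not separate the groups: the log2 ratio was 1.60 ± 0.41 with ML141 and 1.86 ± 0.14 with DMSO (2-sided exact permutation p = 0.4), and ML141 replicate 3, at 2.06, lay above all DMSO libraries.

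CDK2 (chromosome 12, 55966769 to 55972784), the kinase of both cyclins, fell less. It had 48.4, 69.2 and 72.0 CPM with ML141, against 173, 186 and 193 CPM with DMSO, so that the ML141 mean was 34.3% of the DMSO mean. Its log2 fold change was -1.54 with an SE of 0.130 (edgeR adjusted p = 2.08e-06). An antisense gene with no entry in the table, AC025162.1, covers 11.8% of the exon bases of CDK2. CDC25A (chromosome 3, 48157146 to 48188402), the activating phosphatase, had 10.0, 14.6 and 12.1 CPM with ML141, against 60.0, 65.0 and 56.2 CPM with DMSO (log2 fold change -2.30 with an SE of 0.138, edgeR adjusted p = 2.23e-07).

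The mRNAs of the cyclins were scarcer relative to that of their kinase in each ML141 library than in any DMSO library. Protein was not measured in these data. The log2 ratio of CCNE1 to CDK2 was -4.25, -3.36 and -4.17 with ML141 and -2.52, -2.54 and -2.75 with DMSO, a difference of -1.32. For CCNE2 over CDK2 the ratios were -2.98, -1.90 and -2.12 with ML141 and -0.57, -0.84 and -0.82 with DMSO, a difference of -1.59. Neither ratio overlapped between the groups. CDC25A over CDK2 differed by -0.75 between ML141 and DMSO. Counted per kilobase of exon, CCNE1 and CCNE2 together stood at 15.03, 30.4 and 22.8 for every 100 of CDK2 in the ML141 libraries, against 68.2, 59.9 and 57.6 in the DMSO libraries. The CCNE2 part divides by all its exon bases, of which 47.5% are shared with INTS8. How reads on the shared bases were counted is not known, so this level may be off. Of 8 ratios between pairs of the 10 genes, 6 did not overlap between ML141 and DMSO libraries, each with a 2-sided exact permutation p of 0.1 (0.133 adjusted over the 8). That is the smallest p that 3 against 3 libraries can give, so no ratio could pass 0.05.

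SKP2 (chromosome 5, 36151989 to 36184319), the substrate-binding subunit of a ubiquitin ligase, had 59.3, 76.4 and 62.4 CPM in ML141 libraries, against 273, 272 and 259.9 CPM in DMSO libraries. Both groups were tight, and the log2 fold change of -2.02, with an SE of 0.101, had the smallest p of the 10 genes (edgeR adjusted p = 7.65e-08). The log2 ratio of SKP2 to CDK2 was 0.08 ± 0.26 with ML141 and 0.54 ± 0.12 with DMSO, a difference of -0.47 that is among the 6 non-overlapping ratios.

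**Figure D1:**
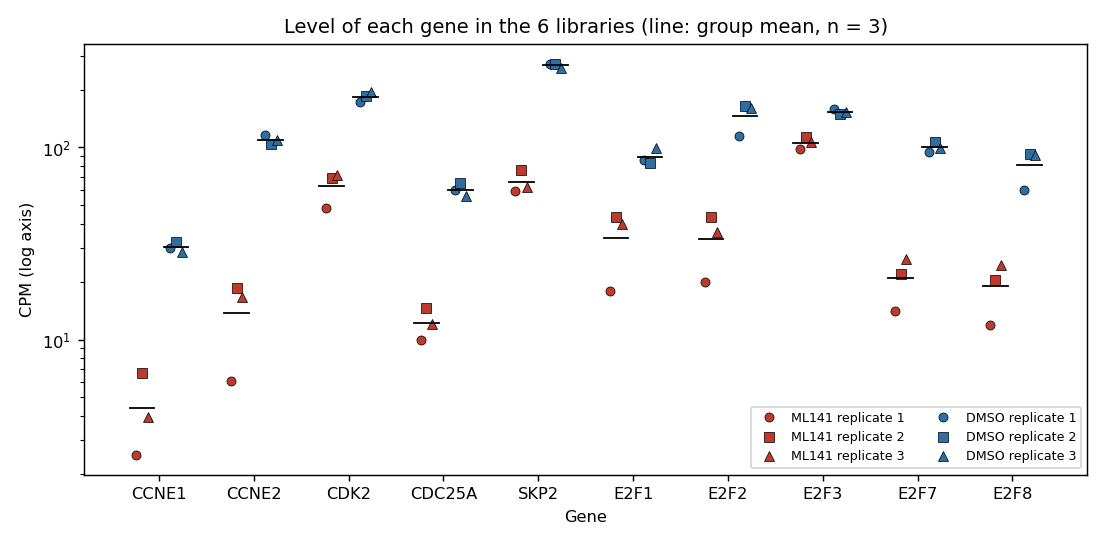
CPM of each of the 10 genes on a log axis, with 1 point per library (shape: replicate number), ML141 in red to the left and DMSO in blue to the right, and a line at each group mean (n = 3). All ML141 points lie below all DMSO points of the same gene, and the ML141 circle (replicate 1) is the lowest point in each gene.

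The 3 activator E2F genes fell by different amounts. E2F1 (chromosome 20, 33675683 to 33686404) had 17.9, 43.2 and 40.0 CPM with ML141, against 86.5, 82.9 and 99.6 CPM with DMSO (log2 fold change -1.41 with an SE of 0.236, edgeR adjusted p = 3.63e-04). ML141 replicate 1 lay well below the other ML141 libraries, and without it the log2 fold change was -1.11. E2F2 (chromosome 1, 23506430 to 23531220) had 19.9, 43.7 and 36.1 CPM with ML141, against 115, 164 and 160.2 CPM with DMSO (log2 fold change -2.13 with an SE of 0.225, edgeR adjusted p = 1.06e-05). E2F3 (chromosome 6, 20401906 to 20493715) had 97.7, 113 and 107 CPM with ML141, against 158, 149 and 153 CPM with DMSO, and fell by 0.53 on the log2 scale (SE 0.083, edgeR adjusted p = 2.24e-04). E2F3 was thus the least changed of the 10 genes, and 18.3% of all tested genes fell further. When tested for a change of more than 1.5-fold it did not pass (edgeR glmTreat adjusted p = 1.00), whereas the other 9 genes did.

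The log2 ratio of E2F1 to E2F3 was -2.45, -1.39 and -1.42 with ML141 and -0.87, -0.84 and -0.62 with DMSO, a difference of -0.97 without overlap, or of -0.63 when ML141 replicate 1 was left out. E2F2 relative to E2F1 stood at 0.16, 0.02 and -0.15 with ML141 and at 0.41, 0.98 and 0.69 with DMSO, a difference of -0.69, also without overlap. Both ratios are among the 8 above and have an exact permutation p of 0.1.

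The repressor genes E2F7 and E2F8 both fell. E2F7 (chromosome 12, 77021247 to 77065580) had 14.1, 21.9 and 26.4 CPM with ML141, against 94.4, 107 and 99.98 CPM with DMSO (log2 fold change -2.27 with an SE of 0.173, edgeR adjusted p = 9.96e-07). E2F8 (chromosome 11, 19224063 to 19241620) had 11.9, 20.4 and 24.6 CPM with ML141, against 60.4, 92.7 and 91.0 CPM with DMSO (log2 fold change -2.10 with an SE of 0.226, edgeR adjusted p = 1.23e-05). DMSO replicate 1 was lower than the other DMSO libraries in E2F8 and E2F2. The log2 ratio of E2F7 to E2F8 overlapped between the groups, at 0.15 ± 0.08 with ML141 and 0.33 ± 0.27 with DMSO (2-sided exact permutation p = 0.5), a difference of -0.18 that was -0.022 without DMSO replicate 1.

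**Figure D2:**
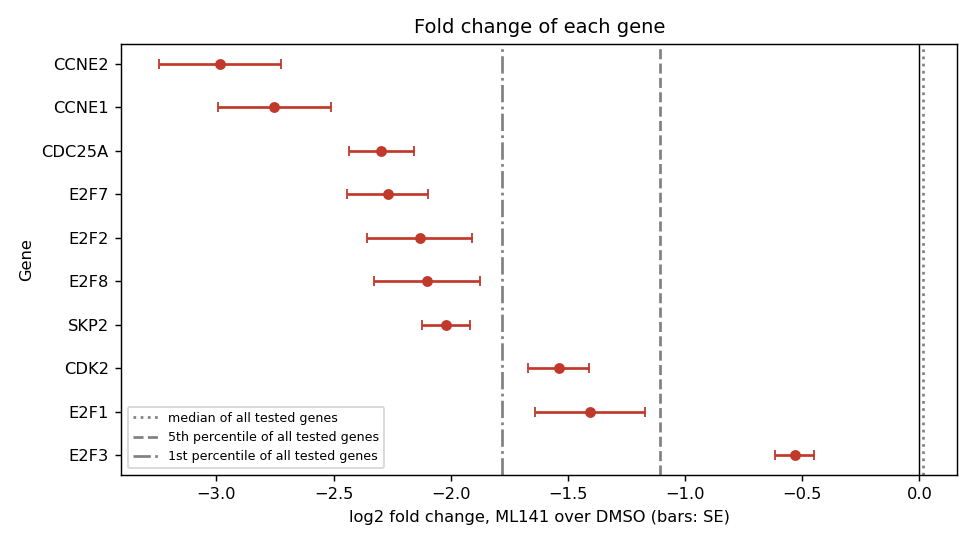
Log2 fold change (ML141 over DMSO) of each of the 10 genes with its SE, beside the median, the 5th and the 1st percentile of all tested genes (0.02, -1.11 and -1.78). All but E2F3 lie below the 5th percentile, and 7 lie below the 1st.

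The make-up of E2F mRNA differed between the groups. The summed level of E2F1 to E2F8, per kilobase of exon, was 91.0 ± 11.7 CPM per kb with ML141 and 182 ± 14.2 CPM per kb with DMSO (SD, n = 3 each). E2F7 and E2F8 made up 7.03%, 8.97% and 11.5% of that sum in ML141 libraries, against 19.3%, 22.5% and 21.2% in DMSO libraries. E2F2 made up 6.89% ± 1.77 with ML141 and 15.4% ± 1.80 with DMSO. E2F2, E2F7 and E2F8 thus took a smaller part of E2F mRNA in each ML141 library than in any DMSO library. E2F3, whose level fell, made up 22.7% ± 1.40 with ML141 and 16.4% ± 1.82 with DMSO. The share of E2F4, E2F5 and E2F6, which are known mainly as repressors and were not among the 10 genes, was 46.9% ± 6.72 with ML141 and 27.4% ± 0.853 with DMSO. Of these, E2F4 fell by 0.35 on the log2 scale (SE 0.110, edgeR adjusted p = 0.0177), and E2F5 and E2F6, at -0.21 and 0.15, did not pass the test. None of these shares overlapped between the groups, and ML141 replicate 1 had the highest share of E2F4 to E2F6, at 54.6%.

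**Figure D3:**
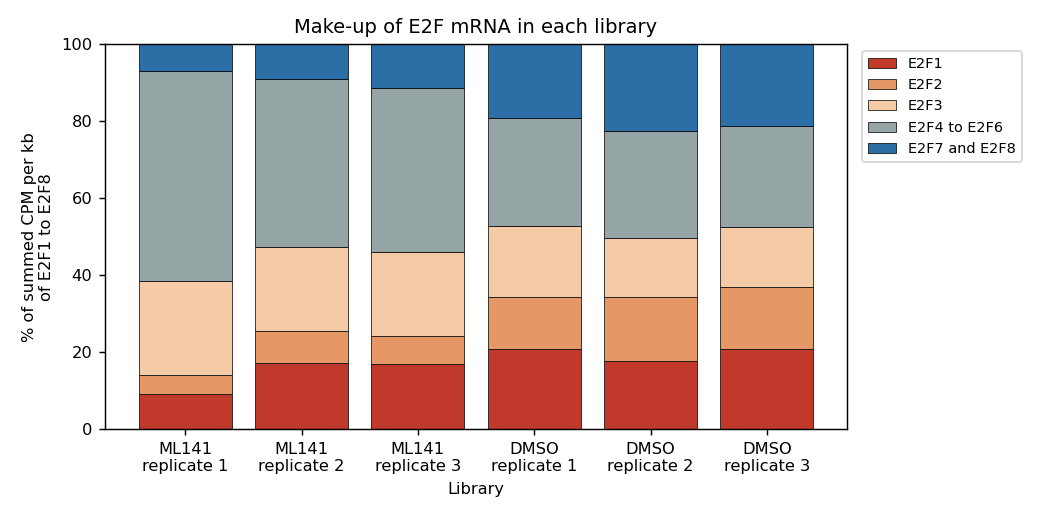
Stacked bars give the share (%) of E2F1, E2F2, E2F3, E2F4 to E2F6, and E2F7 with E2F8 in the summed CPM per kb of E2F1 to E2F8, 1 bar per library, ML141 left and DMSO right. The blue part (E2F7 and E2F8) is 7.03% to 11.5% of the ML141 bars and 19.3% to 22.5% of the DMSO bars.

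Set in order of level per kilobase of exon, CDK2 was highest in both groups, at 25.9 ± 5.28 CPM per kb with ML141 and 75.5 ± 4.33 CPM per kb with DMSO. CCNE1 was lowest in both, at 2.11 ± 1.03 CPM per kb with ML141 and 14.5 ± 0.801 CPM per kb with DMSO. With ML141 the order from the top was CDK2, E2F3, SKP2, E2F1, E2F2, E2F8, CCNE2, E2F7, CDC25A and CCNE1, and the libraries of each pair of neighbours overlapped. With DMSO it was CDK2, SKP2, E2F1, CCNE2, E2F3, E2F2, E2F8, E2F7, CDC25A and CCNE1, and all neighbours overlapped apart from SKP2 and E2F1. CCNE2 stood in place 7 with ML141, at 1.78 to 5.38 CPM per kb, and in place 4 with DMSO, at 30.4 to 33.8 CPM per kb. Its levels and places carry the limit of the exon bases it shares with INTS8.

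ML141 replicate 1 was the lowest of all 6 libraries in 10 of the 10 genes. Over all tested genes 13.6% were lowest in that library with no overlap between groups, or 44.4% of the 3514 genes that were lower without overlap. Against the DMSO mean, CCNE2 stood on the log2 scale at -4.16 in ML141 replicate 1, -2.57 in replicate 2 and -2.72 in replicate 3. E2F1 stood at -2.32, -1.05 and -1.16 in the same libraries, and E2F3 at -0.65, -0.43 and -0.52. Over the ML141 libraries the spread was widest in CCNE2, with a log2 range of 1.59, and narrowest in E2F3, with 0.21. Over the DMSO libraries these 2 genes had ranges of 0.16 and 0.09, and the spread was widest in E2F8 (0.62) and narrowest in SKP2 (0.07). Without ML141 replicate 1 all 10 genes were still lower at an adjusted p of 0.05 (edgeR), among them CCNE1 at a log2 fold change of -2.49.

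**Figure D4:**
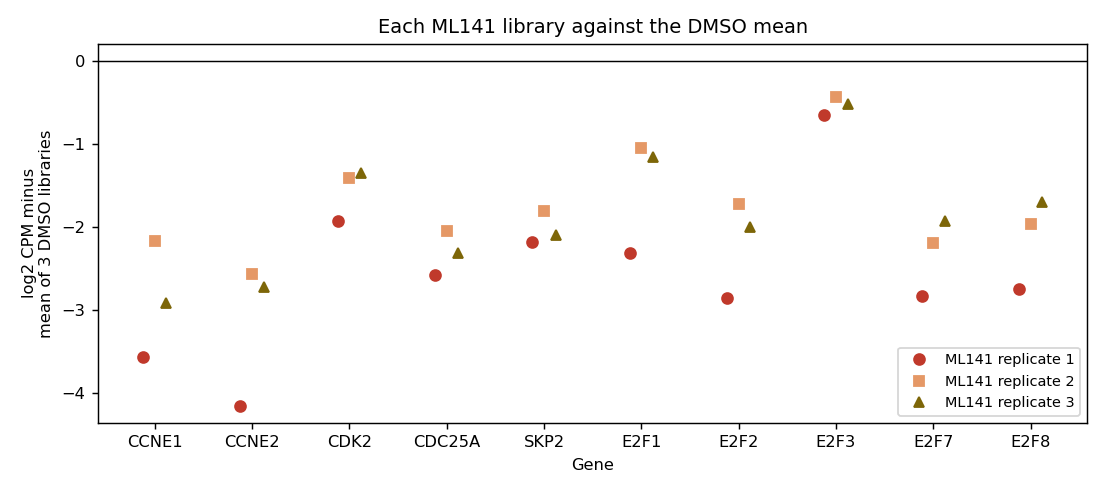
Log2 CPM of each ML141 library minus the mean of the 3 DMSO libraries (line at 0), for each of the 10 genes, with 1 symbol per ML141 replicate. Replicate 1 (circles) is lowest in all 10 genes, from -0.65 in E2F3 to -4.16 in CCNE2.

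Genes that act with these 10 were followed in 5 lists. For comparison with the counts in each list, 26.7% of all tested genes rose and 27.7% fell at an adjusted p of 0.05 (edgeR). Of 15 other E2F, DP, retinoblastoma-family and DREAM/MuvB genes, 15 were tested, 1 rose, 9 fell and 5 did not pass the test, with a median log2 fold change of -0.34. TFDP1, the DNA-binding partner of E2F proteins, had 61.9, 92.4 and 95.5 CPM with ML141, against 239, 228 and 232 CPM with DMSO, and fell 2.79-fold. MYBL2, which takes the place of E2F repressors on MuvB as cells proceed to mitosis, fell 4.25-fold to 73.9 ± 22.7 CPM with ML141, against 314 ± 30.9 CPM with DMSO. RBBP4, a histone-binding subunit of MuvB and of other chromatin complexes, fell 1.68-fold, and LIN37, a MuvB subunit, rose 2.08-fold to 7.59 ± 0.399 CPM with ML141, against 3.64 ± 0.482 CPM with DMSO. The retinoblastoma gene RB1 had 304 ± 26.7 CPM with ML141 and 308 ± 23.8 CPM with DMSO (log2 fold change -0.02 with an SE of 0.090, edgeR adjusted p = 0.863).

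Among 16 genes for partners, activators and inhibitors of CDK2, 12 were tested, 2 rose, 6 fell and 4 did not pass, with a median log2 fold change of -0.38. The 2 that rose encode CDK inhibitors. CDKN1A, the p21 gene, had 103, 56.9 and 57.9 CPM in ML141 libraries, against 35.5, 36.2 and 35.6 CPM in DMSO libraries (log2 fold change 1.02 with an SE of 0.197, edgeR adjusted p = 9.63e-04). CDKN1B, the p27 gene, had 79.4, 57.8 and 75.6 CPM with ML141, against 35.0, 39.2 and 41.9 CPM with DMSO (log2 fold change 0.87 with an SE of 0.129, edgeR adjusted p = 1.50e-04). In ML141 replicate 1, where the 10 genes were lowest, CDKN1A and CDKN1B were at their highest. That is 1 library, CDKN1B was close to that level in replicate 3, and a link was not tested. CCNA2, the A-type cyclin that binds CDK2 after cyclin E, fell 2.87-fold. CDK1, the kinase of mitosis, fell 2.41-fold, and WEE1, which places the phosphates that CDC25 enzymes remove, fell 2.21-fold. The other A-type cyclin gene, CCNA1, and the inhibitor gene CDKN1C had no count in any library.

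Of 11 genes that control turnover of these proteins or the replication checkpoint, 11 were tested, 8 fell, 1 rose and 2 did not pass, with a median log2 fold change of -0.44. CHEK1, the checkpoint kinase that marks CDC25A for destruction, had 77.1, 83.0 and 82.2 CPM with ML141, against 215, 207 and 191 CPM with DMSO, and fell 2.53-fold. CCNF, which targets activator E2F proteins for destruction, fell 2.28-fold, and FBXO5, an inhibitor of the APC/C ligase, fell 2.21-fold. FBXW7, the adaptor that marks cyclin E for destruction, fell by 0.38 on the log2 scale (SE 0.091, edgeR adjusted p = 0.00429). CDC34, a ubiquitin-conjugating enzyme, was higher by 0.27 on the log2 scale with an SE of 0.103 (edgeR adjusted p = 0.0424). That call was lost with DESeq2 (adjusted p = 0.0650), with no low-count filter (edgeR adjusted p = 0.0550) and against a minimum fold change of 1.5 (1.00). It was also lost when ML141 replicate 1, 2 or 3 or DMSO replicate 1 or 2 was left out (0.0657 to 0.143), and without replicate 1, 2 or 3 of both groups (0.132, 0.175 and 0.0968).

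All 28 listed E2F target genes of S phase fell, 25 of them by more than 2-fold, with a median log2 fold change of -1.63. Over all tested genes 27.7% fell, and 6.24% fell by more than 2-fold. PCNA, the sliding clamp of DNA polymerases, had 131, 156 and 159 CPM with ML141, against 705, 617 and 668 CPM with DMSO. DTL, which brings CDT1 and other substrates to a ubiquitin ligase, had 40.6, 59.7 and 54.6 CPM with ML141, against 279, 257 and 255 CPM with DMSO. RRM1, the large subunit of ribonucleotide reductase, had 162, 165 and 194 CPM with ML141, against 563, 571 and 551 CPM with DMSO. In PCNA, DTL and RRM1 alike ML141 replicate 1 was the lowest library. In none of the 28 did the groups overlap, and 30.7% of all tested genes were lower without overlap. Summed over the list, ML141 libraries held 2803 to 4030.1 CPM and DMSO libraries 10269 to 10405 CPM. All 4 listed substrates of cyclin E and CDK2 fell, by less than 2-fold each, with a median of -0.78: NPAT, which activates histone genes, by 1.91-fold, the nucleolar protein gene NPM1 by 1.73-fold, CCP110 of the centriole by 1.71-fold, and the histone chaperone gene HIRA by 0.47 on the log2 scale.

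**Figure D5:**
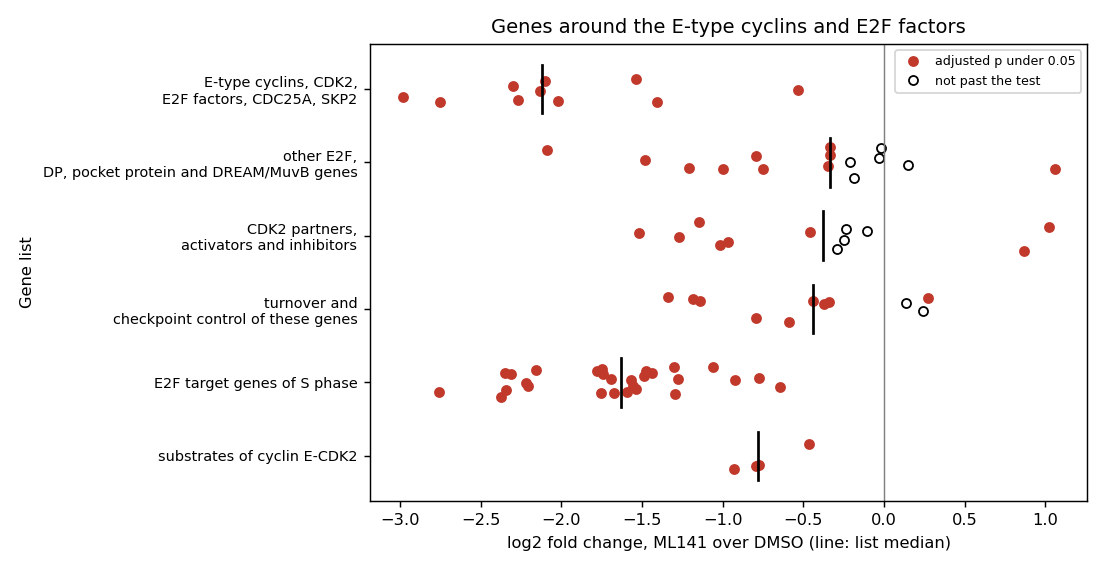
Log2 fold change (ML141 over DMSO) of each tested gene in the set of 10 genes and the 5 lists, with red points past an adjusted p of 0.05, open points not past it, and a line at each list's median. The medians run from -0.34 in the E2F, DP and DREAM/MuvB list to -2.12 in the set of 10.

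Of 9600 tested genes outside these lists that averaged 5 CPM or more, C1orf216, FAM111B and BRI3BP had the profiles most like that of CCNE1 over the 6 libraries. Their root-mean-square differences from it, on log2 CPM centred on the DMSO mean, were 0.13, 0.24 and 0.26. The closest to CCNE2 were the same 3 genes, each at 0.34. Among the closest to CDK2 were FANCD2 of the Fanconi anemia pathway, at 0.068, and ZWINT of the kinetochore, at 0.087.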

How the data were processed

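The table deposited by the authors holds raw counts per gene symbol in 1 column per library, matched to samples through their descriptions. The authors' deposited scores, counts divided by a size factor per library and rounded, were not used. The submitters' processing notes name DESeq2, featureCounts, Picard, Bowtie2, Trimmomatic and bcl2fastq 2.19 with build hg38. How they were set, and with which annotation, is not given in the sources used. The kit, TruSeq RNA v2 per the labels' protocols, does not mark the strand.

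Genes were kept with filterByExpr (minimum count 10, minimum total 15) and tested on all 6 libraries with edgeR 4.0.16 in R 4.3.3 (TMM factors, glmQLFit and glmQLFTest, group as the only term, 2-sided, Benjamini-Hochberg over 11454 genes, threshold 0.05). The SE is the log2 fold change over the square root of F. Log2 CPM used a prior count of 0.5. Exon lengths and overlaps come from the GENCODE 29 basic annotation (GRCh38, the same build as hg38). Ratios between genes used a 2-sided exact permutation test. The fit was also run on simulated data in which few genes changed, evenly up and down. Such data cannot show how the fit or its scaling behaves where 54.4% of genes change. Named pathway genes were up to 3 higher and 3 lower per list with the smallest p. RB1, E2F4 to E2F6, FBXW7, HIRA, CCNA1 and CDKN1C were named outside that rule, after their values were seen. A gene among those with profiles like CDK2 is not reported here. The genes and lists were chosen with earlier results of these data known.

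Alternatives were other scaling factors, low-count filters, DESeq2 1.42.0, limma-voom (limma 3.58.1), the replicate number as a block, libraries left out, a minimum fold change of 1.5, and a prior count of 2. Transcript length was an alternative chosen after seeing the data.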

Additional observations from a re-analysis of the deposited data

How the results depend on the processing

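All 10 genes were lower at an adjusted p of 0.05 under 17 of 18 alternatives (scaling, filters, DESeq2, limma-voom, the block, and libraries left out), and 9 were against a minimum fold change of 1.5, where E2F3 was lost (adjusted p = 1.00). Over the alternatives the log2 fold change of CCNE2 ranged from -3.29 to -2.61, of CCNE1 from -3.21 to -2.49, of E2F1 from -1.68 to -1.11 and of E2F3 from -0.60 to -0.36. The counts over all genes, 6230 changed, 3059 higher and 3171 lower, were 1811, 813 and 998 against that minimum fold change, by its construction. With library totals 4494 were higher and 2302 lower, and with upper-quartile factors 3843 and 2611. The count of the 10 genes past 4-fold was 7, but 5 with upper-quartile factors, 4 with library totals and 4 to 7 with libraries left out, lowest without ML141 replicate 1. Leaving out libraries gave 4161 to 6567 changed genes, 1920 to 3195 higher and 2241 to 3372 lower; the lowest count of higher genes came without replicate 3 of both groups. The median over all tested genes shifted up by 0.17 on the log2 scale with library totals and by 0.10 with upper-quartile factors. With library totals E2F3 stood at -0.36. With upper-quartile factors or library totals 3 turnover genes were higher, in place of 1, and with library totals 2 E2F, DP and DREAM/MuvB genes, in place of 1. No ratio between genes changed direction under a prior count of 2 or with any 1 library left out, and the p of a ratio cannot pass 0.05 in this design. With the replicate number as a block 6979 genes changed and all 10 genes were lower. Their SEs were then smaller, by much in E2F2 (0.104 against 0.225) and by little in E2F3 (0.079 against 0.083). The sample descriptions give same-numbered libraries a shared tag, but no label says what the number or tag marks. Same-numbered libraries correlated in their deviations from group means at 0.34, 0.08 and 0.16. ML141 replicates 1 and 3 correlated best with the DMSO library of their own number, but ML141 replicate 2 with DMSO replicate 3 (0.27). The numbers were not taken to pair the libraries, though a pairing is not excluded. If there is one, the main SEs and p-values leave it out. Within each of the 3 numbers the log2 ratio of E2F7 to E2F8 was lower with ML141 (0.25 against 0.64, 0.11 against 0.21 and 0.10 against 0.14). Its exact permutation p with the block was 0.25, the smallest 3 pairs can give, and applies only if the numbers pair the libraries. Between the groups this ratio overlapped, and its difference was -0.022 without DMSO replicate 1. Depth limits CCNE1 most, with 27 to 89 counts per ML141 library.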
